A study of Mus musculus with 1753 samples.

Results

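The genes described here are 9 of the 46517 genes counted in single cells of mouse skeletal muscle. They were chosen by name from the BMP and GDF ligands and their extracellular regulators, with earlier results of these data known. Bmp4, Bmp5, Bmp6 and Gdf10 encode ligands, Bmp1 encodes a protease that was named with them, and Fst, Fstl1, Grem1 and Chrdl1 encode secreted proteins that bind ligands or are related to such proteins. All 9 were present in the count table.

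The study profiled fibroblasts and mural cells, which are the smooth muscle cells and pericytes around vessels, with Smart-seq2, and its labels place 1753 cells in 10 clusters. The cells came from the dissociated gastrocnemius and soleus of male mice aged 10 to 20 weeks, sorted singly into plates. The 5 strain labels were C57BL6, a wild-type inbred strain, Acta2GFP and PdgfrbGFP, in which the promoter of the named gene drives a green reporter, Cspg4dsRED, in which that of Cspg4 drives a red one, and the PdgfraGFP - PdgfrbGFP pool, whose soleus was mixed from a mouse of either reporter line before dissociation and which is called the pool below. Endothelial cells had been excluded in the sort by an antibody to CD31, and cells were taken by reporter or by antibody to PDGFRα or PDGFRβ, so a strain label also stands for the gate through which its cells came. Elastase had been added to the dissociation of Acta2GFP tissue. The labels name no animal, and each strain label was taken as 1 replicate. Following the study's terms, clusters 2 and 9 are perimysial (from the sheath around fibre bundles), cluster 4 is paramysial, clusters 1, 3, 5, 6 and 8 are endomysial (from around the fibres themselves), cluster 7 is mural and cluster 10 is a further fibroblast cluster without a class name.

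The median cell had 258251 counts and the extremes were 46097 and 1055869. Depth was lowest in Cspg4dsRED, with a median of 121646 counts. Myh11, a smooth muscle myosin, had 100 or more scaled counts in 90.8% of mural cells and in 1.3% of endomysial cells, as means over strains. Pdgfra reached that level in 72% of endomysial and in 0% of mural cells. It did so in 2.82% of perimysial cells, which carried Tnmd, a gene of tendon cells, in 98.7%. The authors had already removed cells with clear endothelial or immune contamination, so low levels of such markers partly reflect that filter. Of the defining markers of other cell types, Ptprc, Cd52, Sox10, Myod1 and Pax7 had a mean of at most 1.93 scaled counts in every class. The summed level of 4 endothelial markers lay between 0 and 13.5 scaled counts in each class and strain, apart from 108 in the mural cells of the pool and 157 in the cluster 10 cells of PdgfrbGFP. The summed level of 4 markers reached 103 for immune cells (mural), 24.1 for Schwann cells (cluster 10) and 256 for muscle (paramysial), and the part of such RNA in the results was not tested.

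Bone morphogenetic proteins and growth and differentiation factors are secreted dimers of the TGF-beta family. They bind pairs of type I and type II receptors at the cell surface, and most BMPs then act through SMAD1, SMAD5 and SMAD9 to switch on genes such as Id1, Id2 and Id3. Extracellular antagonists hold the ligands away from their receptors: follistatin (Fst) binds activins, myostatin and some BMPs, and gremlin 1 (Grem1) and chordin-like 1 (Chrdl1) bind BMPs. Fstl1 is a secreted glycoprotein related to follistatin. Gdf10, also known as Bmp3b, is a divergent member of the family that is closest to Bmp3, and mesenchymal progenitors of muscle are a known source of it. Bmp1 is not a TGF-beta family ligand but an astacin metalloprotease, which trims the C-terminal propeptide from fibrillar procollagens and also cleaves chordin.

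Levels are given below as scaled counts, that is read counts after each cell had been scaled to 500000 counts without spike-ins. The mean over the cells of a cluster was taken in each strain label with at least 3 such cells, and then the mean ± SD over the n strains. This SD includes offsets of a strain common to its clusters, and the strains entered differ between clusters. A step smaller than the SD therefore does not show that clusters were alike. The clusters had been drawn by the authors from these same counts, so a comparison of clusters describes how steadily a gene differed over strains and is no independent test of that difference.

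Each gene had its highest level in a particular group of clusters. Gdf10 led in clusters 8 and 6, Bmp4 in cluster 3, Bmp5 in the perimysial clusters 9 and 2, Bmp1 in cluster 1, Fst in cluster 6 and Chrdl1 in clusters 2, 8 and 5. Fstl1 was found in nearly every fibroblast, and Grem1 in hardly any cell. Levels per kilobase of exon compare genes only roughly, since all annotated exons of a gene were counted, whichever transcript was present. On this scale Fstl1 stood above the others in every cluster, with 403 scaled counts per kilobase in cluster 1 and 49.8 in mural cells. The nearest approach was in cluster 8, with Fstl1 at 238 and Gdf10 at 186 scaled counts per kilobase. In cluster 3, Bmp4 reached 110 per kilobase beside 26.7 for Bmp1 and 7.64 for Gdf10. The highest value of Bmp5 on this scale was 26.6, in cluster 9, and that of Bmp6 was 8.48, also in cluster 9.

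**Figure D1:**
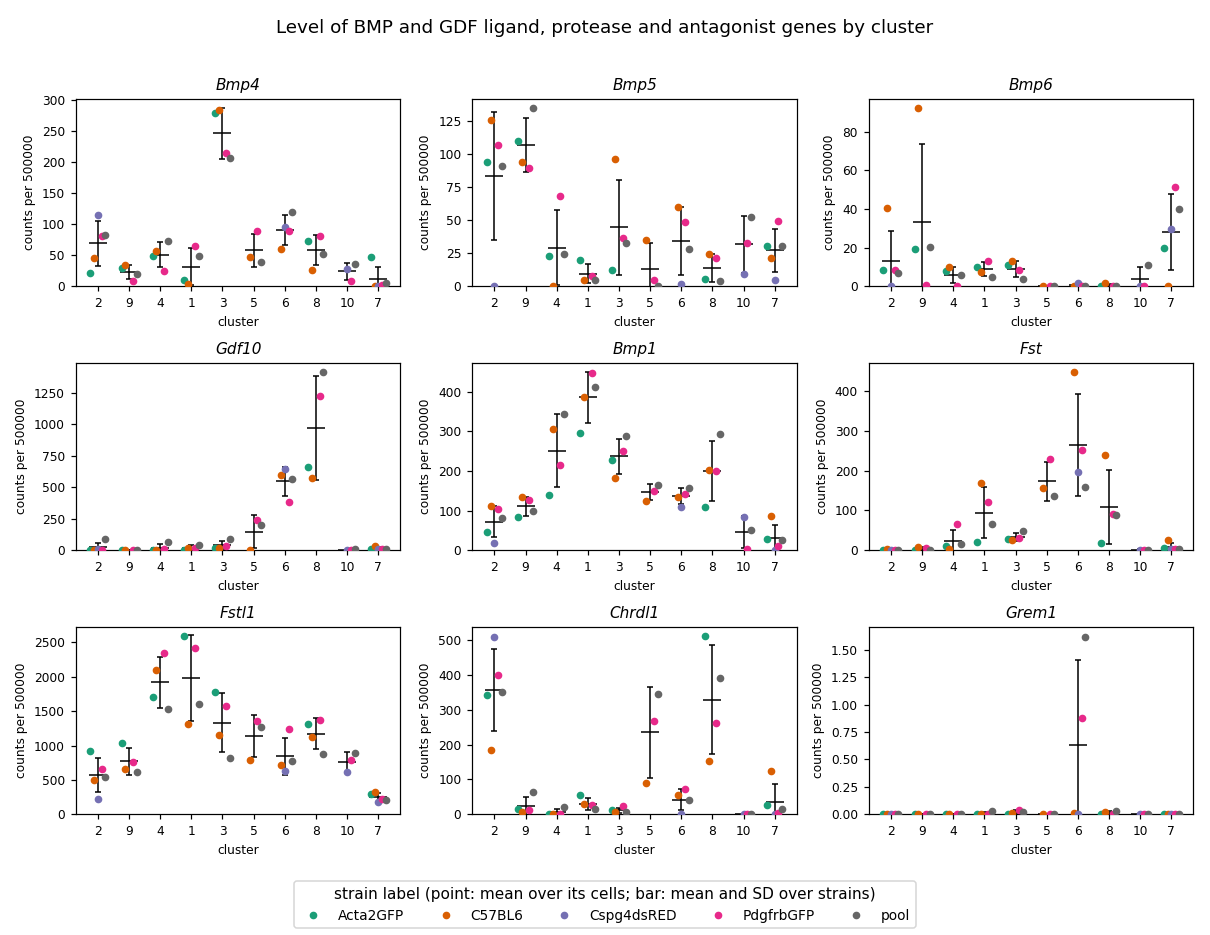
Level of each gene (y axis, scaled counts per cell, linear) by cluster (x axis, perimysial 2 and 9, paramysial 4, endomysial 1, 3, 5, 6 and 8, cluster 10 and mural 7). Each coloured point is the mean over the cells of a strain label, and the black bar gives the mean and SD over strains; Gdf10 stands at 969 in cluster 8 and Bmp4 at 246 in cluster 3, while the axis for Grem1 ends below 2.

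The ligands Bmp4, Bmp5 and Gdf10 led in different fibroblast clusters, and the stretches just upstream of their starts are shown because these are the promoters of the genes on which that contrast rests. The sequences are the 250 bases before each RefSeq start on GRCm38.p6, on the strand of the gene. Capitals mark every match, on either strand, of the E-box (CANNTG) or the GC box (GGGCGG), and 2 more motifs that were searched, the TATA box (TATAAA) and the SMAD GC motif (GGCGCC), had no match in them. Bmp4 lies on chromosome 14 on the minus strand (gene 46383520 to 46390669, ENSMUSG00000021835), and the printed bases are chr14:46390670-46390919. Bmp5 lies on chromosome 9 on the plus strand (75775364 to 75900310, ENSMUSG00000032179), and the printed bases are chr9:75775115-75775364. Gdf10 lies on chromosome 14 on the plus strand (33923587 to 33937983, ENSMUSG00000021943), and the printed bases are chr14:33923337-33923586.
Bmp4: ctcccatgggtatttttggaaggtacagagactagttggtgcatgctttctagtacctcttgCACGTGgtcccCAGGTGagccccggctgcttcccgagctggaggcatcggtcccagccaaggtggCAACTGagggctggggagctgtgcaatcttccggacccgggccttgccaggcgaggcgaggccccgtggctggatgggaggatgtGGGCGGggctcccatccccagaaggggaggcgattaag
Bmp5: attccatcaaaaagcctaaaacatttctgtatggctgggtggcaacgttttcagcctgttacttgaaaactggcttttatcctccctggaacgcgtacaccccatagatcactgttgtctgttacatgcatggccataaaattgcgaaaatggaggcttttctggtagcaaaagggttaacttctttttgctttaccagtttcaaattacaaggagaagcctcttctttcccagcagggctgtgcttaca
Gdf10: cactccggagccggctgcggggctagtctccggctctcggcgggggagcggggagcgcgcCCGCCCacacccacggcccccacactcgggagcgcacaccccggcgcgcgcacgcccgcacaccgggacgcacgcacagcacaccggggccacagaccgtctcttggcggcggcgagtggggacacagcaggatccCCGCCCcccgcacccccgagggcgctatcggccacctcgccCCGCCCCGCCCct
The Gdf10 stretch had 78.8% G and C and 35 CG pairs, that of Bmp4 63.2% and 11 pairs, and that of Bmp5 42.8% and 4 pairs, beside a median of 6 pairs over the 32851 mouse promoters in the RefSeq table. Gdf10 held 4 GC boxes, of which the last 2 overlap, and no E-box. Bmp4 held 3 E-boxes and 1 GC box, and Bmp5 held neither. An E-box was present in 66.2% and a GC box in 32.7% of all promoters of this length, a TATA box in 12.4% and the SMAD GC motif in 9.59%.

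Gdf10 was the ligand with the highest counts, and its level was concentrated in 2 endomysial clusters. In cluster 8 it stood at 1414 scaled counts in the pool, 1222 in PdgfrbGFP, 662 in Acta2GFP and 576 in C57BL6, a mean of 969 ± 413 (SD, n = 4). In cluster 6 it stood at 641 in Cspg4dsRED, 594 in C57BL6, 567 in the pool and 379 in PdgfrbGFP, a mean of 545 ± 115 (n = 4). Cluster 8 exceeded cluster 6 in PdgfrbGFP and the pool but not in C57BL6, so the order of these clusters differed between strains. Cluster 5 followed at 148 ± 127 (n = 3), with 242 in PdgfrbGFP and 199 in the pool against 3.27 in C57BL6. From cluster 3 downwards (39.8 ± 33.4, n = 4) no neighbour in the order differed from the next by more than their SD, and the lowest were cluster 10 at 3.25 ± 2.44 (n = 3) and cluster 9 at 2.55 ± 1.42 (n = 4). At least 100 scaled counts were present in 84.4% ± 14.6 of cluster 8 cells and in 67.1% ± 8.98 of cluster 6 cells. Within cluster 8 the quartiles of single cells were 365 and 1547 scaled counts around a median of 908, and 7 of 253 cells had none.

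Bmp4, a ligand of the BMP2 and BMP4 subgroup, was highest in cluster 3 in every strain measured there. It stood at 284 in C57BL6, 279 in Acta2GFP, 215 in PdgfrbGFP and 207 in the pool, a mean of 246 ± 40.8 (n = 4). No other cluster reached this range in any strain, the nearest being 119 in cluster 6 of the pool. Cluster 6 was second at 90.8 ± 24.6 (n = 4), and from there down each cluster lay within the SD of its neighbour, to 22.6 ± 11.4 (n = 4) in cluster 9. The mural cells had 46.5 in Acta2GFP and between 0.0933 and 5.54 in the other 4 strains. At least 100 scaled counts were found in 69% ± 12.4 of cluster 3 cells. Of the 440 cluster 3 cells, 41 had no count of Bmp4, and the median cell had 175 scaled counts.

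Bmp5, of the subgroup of BMP5, BMP6 and BMP7, was highest in the perimysial clusters. Cluster 9 had 135 in the pool, 110 in Acta2GFP, 93.8 in C57BL6 and 89.8 in PdgfrbGFP, a mean of 107 ± 20.5 (n = 4). Cluster 2 had between 91 and 126 in 4 strains but 0 in the 16 cells of Cspg4dsRED, the shallowest label, a mean of 83.6 ± 48.7 (n = 5). The 2 perimysial clusters differed by less than the spread between strains, and so did every other neighbouring pair in the order, which ended with cluster 1 at 9.42 ± 7.26 (n = 4). The values of Bmp5 are uncertain in 1 respect. Its exons overlap the antisense gene Gm26903 over 46.7% of their bases, and no source used here says whether reads were counted by strand, so reads of the pair cannot be told apart there.

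Bmp6 (chromosome 13, 38345107 to 38500302, plus strand, ENSMUSG00000039004) was low in all clusters, with a count in 16.1% of cells. Mural cells had 51.2 in PdgfrbGFP, 39.8 in the pool, 29.5 in Cspg4dsRED, 19.9 in Acta2GFP and 0 in the 9 cells of C57BL6, a mean of 28.1 ± 19.6 (n = 5). Cluster 9 had the highest mean, 33.1 ± 40.4 (n = 4), but this rested on C57BL6 at 92.1, the other 3 strains lying between 0.658 and 20.4. Without C57BL6 the mural cluster had the highest level. Among endomysial clusters, Bmp6 was at 9.11 ± 4.12 (n = 4) in cluster 3 and 8.86 ± 3.71 (n = 4) in cluster 1, and below 1 in clusters 5, 6 and 8.

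Bmp1 (chromosome 14, 70474558 to 70520234, minus strand, ENSMUSG00000022098), the procollagen C-proteinase, had a count in 83.5% of cells. It was highest in cluster 1, at 447 in PdgfrbGFP, 412 in the pool, 386 in C57BL6 and 297 in Acta2GFP, a mean of 386 ± 64.4 (n = 4). Cluster 1 was the highest cluster in each of these strains. Clusters 4, 3 and 8 followed at 251 ± 91.7, 237 ± 44.8 and 201 ± 75.4 (n = 4 each) and lay within the SD of their neighbours. The perimysial clusters were lower, at 111 ± 23.8 (n = 4) in cluster 9 and 72.4 ± 39.3 (n = 5) in cluster 2. Mural cells had 30.5 ± 33.7 (n = 5), with 87.5 in C57BL6 and 1.06 in Cspg4dsRED at the ends of the range. In C57BL6 1 of 9 mural cells reached 100 scaled counts.

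Fst (chromosome 13, 114452290 to 114458951, minus strand, ENSMUSG00000021765) was present in part of the endomysial cells and nearly absent from perimysial ones. In cluster 3, the largest endomysial cluster, 54 of 440 cells reached 100 scaled counts of Fst, beside 130 of 231 in cluster 6. Cluster 6 had 448 in C57BL6, 251 in PdgfrbGFP, 197 in Cspg4dsRED and 159 in the pool, a mean of 264 ± 128 (n = 4). Cluster 5 had 173 ± 49.2 (n = 3), cluster 8 109 ± 92.6 and cluster 1 94.7 ± 64 (n = 4 each), and none of these neighbours differed by more than the larger SD. In the perimysial clusters no strain exceeded 7.73, with 0.883 ± 0.877 (n = 5) in cluster 2 and 3.51 ± 3.71 (n = 4) in cluster 9, and no cell reached 100 scaled counts. Cluster 10 was as low, at 1.11 ± 0.907 (n = 3). In clusters 1 and 8 Acta2GFP had the lowest level, 21.8 and 18.8, and C57BL6 the highest, 169 and 239.

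Chrdl1 (chromosome X, 143285674 to 143394262, minus strand, ENSMUSG00000031283) marked 1 perimysial and 2 endomysial clusters. In cluster 2 it stood at 510 in Cspg4dsRED, 400 in PdgfrbGFP, 350 in the pool, 341 in Acta2GFP and 185 in C57BL6, a mean of 357 ± 117 (n = 5). In cluster 8 it stood at 511 in Acta2GFP, 390 in the pool, 262 in PdgfrbGFP and 152 in C57BL6, a mean of 329 ± 156 (n = 4). Cluster 5 followed at 235 ± 131 (n = 3), and these 3 clusters did not differ beyond their spread. The step to the next, cluster 6 at 42.2 ± 30 (n = 4), was larger than the spread, and clusters 9, 3, 4 and 10 lay between 24.2 ± 26.2 and 1.09 ± 0.466. C57BL6 had the lowest level of the strains in clusters 2, 8 and 5. Its mural level was the highest of the strains, 124 over 9 cells, of which 1 reached 100 scaled counts. In cluster 2 the quartiles of single cells were 1.5 and 510 scaled counts, and 63 of 269 cells had none.

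Fstl1 (chromosome 16, 37776873 to 37836514, plus strand, ENSMUSG00000022816) was the broadest of the genes, with a count in 98.2% of cells. Clusters 1 and 4 had the highest levels, 1982 ± 623 and 1917 ± 371 (n = 4 each), and did not differ beyond their spread. Cluster 1 ranged from 1312 in C57BL6 to 2599 in Acta2GFP, and without Acta2GFP cluster 4 had the higher mean. Clusters 3, 8, 5, 6, 9, 10 and 2 followed in steps smaller than the SD, from 1334 ± 427 (n = 4) to 570 ± 252 (n = 5). Mural cells were lowest, at 245 ± 62.3 (n = 5). The highest mural value (328, in C57BL6) lay above cluster 2 of another strain, Cspg4dsRED (226), whose own mural cells had 178. Within strains, mural cells were below the fibroblasts in 5 of 5.

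Grem1 (chromosome 2, 113746164 to 113758646, minus strand, ENSMUSG00000074934) was close to absent. It had 108 counts in all, in 12 of 1753 cells, which is 0.685% with an exact (Clopper-Pearson) 95% interval of 0.354% to 1.19% that covers counting error only. Of these counts, 100 lay in 4 cells of cluster 6, and no cell reached 100 scaled counts, the highest being 84.7. The other 8 cells had 1 count each.

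**Figure D2:**
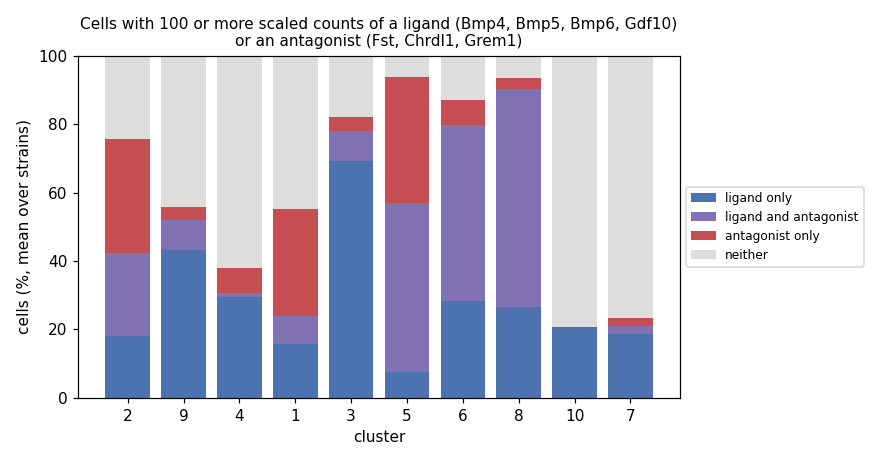
Share of cells (y axis, %, mean over strain labels) in each cluster (x axis) with 100 or more scaled counts of a ligand only, of a ligand and an antagonist, of an antagonist only, or of neither. Ligands are Bmp4, Bmp5, Bmp6 and Gdf10 and antagonists are Fst, Chrdl1 and Grem1; the joint share is 63.7% in cluster 8 and 51.5% in cluster 6, and 69.1% of cluster 3 cells had a ligand only.

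Among the 9 genes, the mean share of cells with both ligand and antagonist transcripts was highest in clusters 8, 6 and 5, a description of cells that was not tested. With 100 scaled counts as the limit, and Fstl1 left aside because almost every fibroblast had it, 63.7% ± 8.31 (SD, n = 4) of cluster 8 cells had a ligand together with Fst, Chrdl1 or Grem1. The share was 51.5% ± 15.3 (n = 4) in cluster 6 and 49.3% ± 21.7 (n = 3) in cluster 5. It was 24.1% ± 8.09 (n = 5) in cluster 2, 8.57% ± 9.63 (n = 4) in cluster 9, 8.13% ± 6.25 (n = 4) in cluster 1, 2.58% ± 4.83 (n = 5) in mural cells, 1.09% ± 2.17 (n = 4) in cluster 4 and 0% in cluster 10. In cluster 3 it was 8.76% ± 3.96 (n = 4), and 69.1% ± 9.2 had a ligand only. Cluster 5, cluster 2 and cluster 1 had the antagonist only in 36.8% ± 20 (n = 3), 33.3% ± 10.7 (n = 5) and 31.4% ± 17.7 (n = 4) of cells. In cluster 10 and in mural cells 79.2% ± 11.2 (n = 3) and 76.8% ± 8.4 (n = 5) had neither. These shares leave out ligands and antagonists beyond the 9 genes, so a cell with a ligand only or with neither may carry others. The antagonist gene Nbl1 was at 250 ± 25.7 scaled counts in cluster 3 (n = 4), and the ligand gene Bmp7 at 141 ± 34 in cluster 10 (n = 3).

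Within cluster 6, the share of cells with Fst was larger among those with Gdf10 than among the rest in each strain. Of cells with 100 or more scaled counts of Gdf10, Fst reached that level in 31 of 37 in C57BL6, 17 of 26 in Cspg4dsRED, 42 of 51 in PdgfrbGFP and 17 of 39 in the pool. Of the cells below that level of Gdf10, Fst reached it in 4 of 12, 6 of 20, 10 of 30 and 3 of 14, in the same order. The median depth of the cells with and without Gdf10 was 296332 and 358159 counts in C57BL6, 107506 and 102627 in Cspg4dsRED, 175081 and 175501 in PdgfrbGFP, and 381243 and 333947 in the pool. In cluster 8, Chrdl1 reached the limit in 66.7%, 42.2% and 46.4% of the cells with Gdf10 in Acta2GFP, C57BL6 and PdgfrbGFP, and in 25%, 13.3% and 30% of those without, the latter being only 4, 15 and 10 cells. Every cluster 8 cell of the pool had Gdf10 at this level. In cluster 2, Chrdl1 reached it in 34.1% of the C57BL6 cells with Bmp5 and in 39.6% of those without, in 63.6% and 71.2% in PdgfrbGFP, in 60% and 58.8% in the pool, and in 40% and 71.4% of only 5 and 7 cells in Acta2GFP. These shares are descriptions of cells and were not tested.

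Over 32 sums of counts by cluster and strain with 10 or more cells, genes whose log2 CPM followed each of these genes closely among 11832 genes were as follows, as a description only, since the sums share clusters and strains. Htra3, Cyp2d22 and Ltbp4 were closest to Bmp4 (Pearson r 0.804, 0.793 and 0.79). Gm26903, the antisense gene that overlaps it, was closest to Bmp5 at 0.965, and Atp6v1a was at 0.766. Sync, Bmp2 and Mphosph6 were closest to Bmp6 (0.837, 0.786 and 0.708). P2ry6, 9930111J21Rik2 and Gabra3 were closest to Gdf10 (0.828, 0.815 and 0.797). Bmp1 and Fstl1 shared their closest pair, Medag (0.945 and 0.897) and Gm20488 (0.933 and 0.897), which overlap each other on the same strand, and then came Nid1 for Bmp1 (0.932) and Gfpt2 for Fstl1 (0.886). Cadm3, Mndal and Ifi203 were closest to Fst (0.907, 0.872 and 0.872), and the last 2 overlap and belong to 1 gene family, so the counting may split their reads. Gpnmb, Cpz and Fbln1 were closest to Chrdl1 (0.864, 0.807 and 0.805). Among the 9 genes themselves r was 0.865 between Bmp1 and Fstl1, 0.738 between Gdf10 and Fst and 0.646 between Bmp1 and Bmp4, and it was -0.547 between Bmp6 and Gdf10.

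The comparisons below used counts summed per class and strain, edgeR's quasi-likelihood test with the strain as a block, and a Benjamini-Hochberg adjusted p under 0.05 over all genes tested as the call. Values are log2 fold changes ± SE unless a level is named. Grem1 passed the filter on low counts in the comparison of muscles only, so 8 of the 9 genes were tested in the others. A list of 72 further genes of the pathway (other ligands, antagonists, receptors, transducers, targets and procollagen C-proteinase genes) is described beside them.

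Mural cells had lower levels of 5 of the 8 genes than fibroblasts of the same strain, and a higher level of none. Among all 13880 genes tested, 9.27% were called lower and 6.15% higher in mural cells, with a median log2 fold change of -0.46. Bmp4 was lower by -5.54 ± 1.02 (adjusted p = 0.00768), Gdf10 by -4.05 ± 0.57 (adjusted p = 0.00209), Fst by -3.48 ± 0.60 (adjusted p = 0.00562), Bmp1 by -3.55 ± 0.82 (adjusted p = 0.0206) and Fstl1 by -2.0 ± 0.31 (adjusted p = 0.00361), each in 5 of 5 strains. Chrdl1 had -3.52 ± 1.24 (adjusted p = 0.0988), the opposite sign in C57BL6, and was called lower without that label, at -4.52. In that label 1 of 9 mural cells reached 100 scaled counts of Chrdl1. The 9 mural cells of C57BL6 also had a summed level of 4 immune markers of 103 scaled counts, beside 0.576 to 2.97 in the other strains, and a summed fibroblast marker level of 403, within the range of 111 to 624 in the others, and the part of these in the result was not tested. Bmp5 had -0.20 ± 0.48 and Bmp6 2.01 ± 1.77 (adjusted p = 0.846 and 0.535), with Bmp6 higher in 4 of 5 strains. The call for Bmp1 was lost without the pool (-3.37) or without PdgfrbGFP (-3.37).

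Of the pathway list, 48 of 72 genes were tested in mural cells, and 12 (25%) were lower and 3 (6.25%) higher, with a median of -1.29. Of the 15 receptors and co-receptors tested, 6 were lower and none higher. The antagonist Bmper was at 1.49 ± 1.54 scaled counts in mural cells and 95.5 ± 58.9 in fibroblasts (n = 5), Chrd, the chordin gene, at 1.42 ± 1.48 and 36.3 ± 9.2, and the ligand Bmp3 at 0.967 ± 2.02 and 11.5 ± 6.36. Pcolce2, which encodes an enhancer of the procollagen C-proteinase, was at 3.23 ± 1.98 and 191 ± 76.7. Acvrl1, a type I receptor, was at 11.3 ± 22.3 and 49.8 ± 21.2. Bmp15 had no count in mural cells and 1478 counts in 34 fibroblasts. The 3 higher genes, named after their values were seen, were Crim1 and the BMP targets Id1 and Id3.

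Perimysial fibroblasts had lower levels of Gdf10, Fst, Bmp1 and Fstl1 than endomysial ones, 4 of the 8 genes, and a higher level of none by the test. Of the 14121 genes, 3.26% were called lower and 2.32% higher, with a median of -0.19. Fst was lower by -6.62 ± 0.68 (adjusted p = 0.00159) and Gdf10 by -5.87 ± 0.76 (adjusted p = 0.00441). The changes of Bmp1 (-1.32 ± 0.26, adjusted p = 0.0289) and Fstl1 (-0.82 ± 0.11, adjusted p = 0.00511) were smaller, and all 4 were in the same direction in 5 of 5 strains. The call for Bmp1 was lost without Acta2GFP (-1.38), C57BL6 (-1.48), the pool (-1.30) or PdgfrbGFP (-1.39). Chrdl1 was at 2.17 ± 0.69 (adjusted p = 0.155), higher in 5 of 5 strains, and Bmp5 at 1.37 ± 0.92 (adjusted p = 0.567), higher in 4 of 5. Both were called higher without Cspg4dsRED, at 1.57 and 2.08. That label had 18 perimysial cells, at 453 scaled counts of Chrdl1, the highest of the strains, and 0.187 of Bmp5, the lowest.

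In the pathway list, 3 of 52 tested genes (5.77%) were higher in perimysial cells and 2 (3.85%) lower, with a median of -0.35. Mstn, which encodes myostatin, was at 18.9 ± 21.7 scaled counts in perimysial and 0.114 ± 0.167 in endomysial cells (n = 5), and its counts came from 29 and 18 cells. Bambi, a pseudoreceptor that dampens BMP signals, was at 39.6 ± 13 and 7.27 ± 5.16. Bmp15 was at 9.42 ± 7.08 and 0.0433 ± 0.041, in 24 and 10 cells. Bmper was at 15.4 ± 12.3 and 125 ± 71.5, and the co-receptor Eng at 52.4 ± 35.9 and 171 ± 45.8.

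No member was called between paramysial cluster 4 and the endomysial cells, a comparison of 4 strains in which C57BL6 gave 3, PdgfrbGFP 4 and Acta2GFP 6 paramysial cells. Only 0.0757% of the 14533 genes were called higher and 0.0206% lower, 14 genes in all, against 981 at an unadjusted p under 0.05 and 796 called by DESeq2, which called Gdf10 and Chrdl1. The median over all genes was -0.86. Gdf10 had -5.49 ± 0.90 (adjusted p = 0.0687) and Chrdl1 -5.56 ± 1.25 (adjusted p = 0.257), both lower in 4 of 4 strains, and Fstl1 0.56 ± 0.16 (adjusted p = 0.387), higher in 4 of 4. Paramysial Gdf10 was at 66.6 scaled counts in the pool and between 0.485 and 13.4 in the others, and endomysial Gdf10 between 158 and 451 in these strains. The share of all genes with such a gap was not counted. Gdf10 was called without Acta2GFP (-4.84), C57BL6 (-4.69) or the pool (-6.62), and Chrdl1 without the pool (-6.87). In the pathway list 0 of 51 tested genes were called, 8 having an unadjusted p under 0.05, with a median of -1.39.

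Cluster 10, the fibroblasts with Ngfr in 59.6% of cells, had a lower level of Gdf10 than endomysial cells, by -7.57 ± 0.61 (adjusted p = 0.0127, 3 of 3 strains). This was the 1 call among the 8 genes. Of 12455 genes 0.177% were called lower and 0.265% higher, with a median of -0.41. The call was lost without PdgfrbGFP (-7.51), when 0 genes were called in all. Fst (-7.08 ± 1.06, adjusted p = 0.0678) and Chrdl1 (-5.68 ± 0.87, adjusted p = 0.0731) were lower in 3 of 3 strains and missed the threshold. Both were called without Cspg4dsRED (-6.09 and -5.91), and Fst also without the pool (-7.63), and Bmp4 (-2.95) and Bmp1 (-4.30) were also called without Cspg4dsRED. Bmp5 was at 0.69 ± 0.71. The ligand Bmp7 was higher, 1 of the 2 calls among 40 pathway genes, at 141 ± 34 scaled counts against 10.2 ± 2.4 (n = 3), and Pcolce2 was lower, at 2.36 ± 1.81 against 199 ± 129. The median of the list was -1.46.

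**Figure D3:**
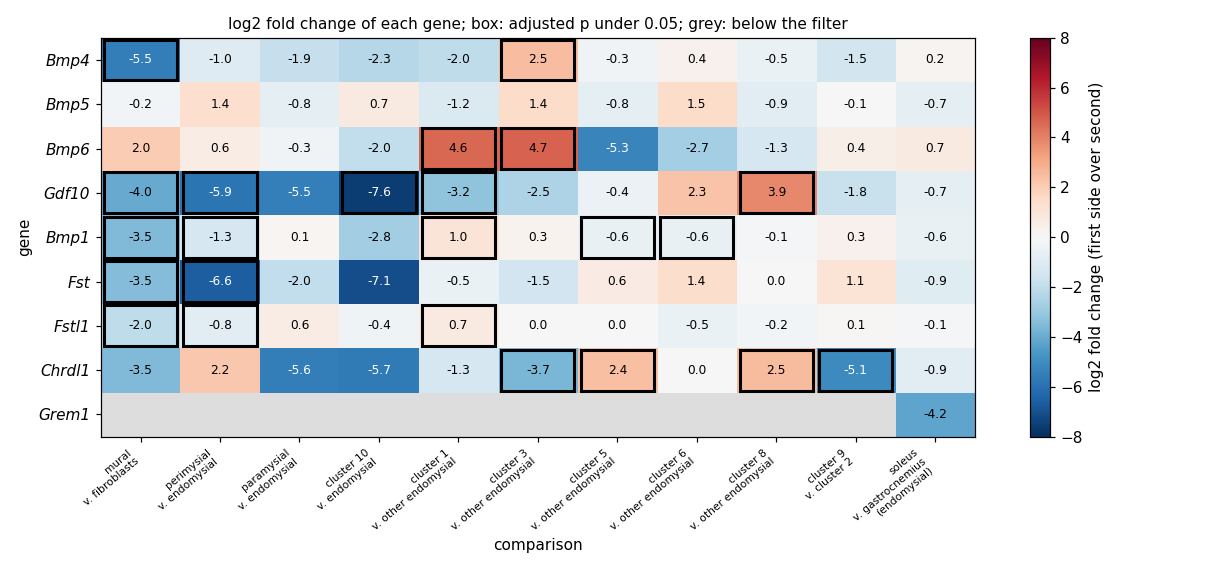
log2 fold change of each gene (rows) in each of the 11 comparisons (columns), first side over second, with the value printed in each cell. A black box marks an adjusted p under 0.05 and grey a gene below the filter; 23 boxes are drawn, 5 of them in the comparison of mural cells with fibroblasts, and none for paramysial cells or for the muscles.

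The 5 endomysial clusters were compared in a fit of their own, each cluster against the mean of the log levels of the others. A cluster near 0 weighs strongly in such a mean, so a large fold change can go with a low level. Levels or counts are given below for most of the pathway genes named. Those of the member genes are in the figure of levels by cluster above.

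In cluster 1, Bmp1, Fstl1 and Bmp6 were higher and Gdf10 was lower, 4 of the 8 genes, beside 1.87% called higher and 1.1% called lower of 16498 genes (median 0.08). Bmp1 was higher by 1.02 ± 0.11 (adjusted p = 7.15e-05) and Fstl1 by 0.71 ± 0.11 (adjusted p = 0.00219), in 4 of 4 strains. Bmp6 was higher by 4.57 ± 0.74 (adjusted p = 0.00225), although its level was close to that of cluster 3, since clusters 5, 6 and 8 were near 0. Gdf10 was lower by -3.21 ± 0.74 (adjusted p = 0.0278). The call for Bmp1 held without any strain. Those for Bmp6 were lost without the pool (4.30) or PdgfrbGFP (5.12), for Gdf10 without Acta2GFP (-2.87), the pool (-3.38) or PdgfrbGFP (-2.99), and for Fstl1 without PdgfrbGFP (0.70). In the pathway list 4 of 57 genes (7.02%) were higher and 2 (3.51%) lower, with a median of -0.07. Bmp3 was at 43.5 ± 9.99 scaled counts against 2.95 ± 2.63 in the other endomysial cells (n = 4), Bmp7 at 23.1 ± 21.2 against 3.83 ± 2.92 and Pcolce2 at 701 ± 125 against 204 ± 43. Bmp8a rested on 9 cells against 2. The targets Id1 (4.79 ± 2.52 against 19.3 ± 12) and Id3 (143 ± 102 against 228 ± 51.8) were the 2 lower genes.

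In cluster 3, Bmp4 and Bmp6 were higher and Chrdl1 was lower, 3 of the 8 genes, beside 1.22% called higher and 0.345% lower (median 0.26). Bmp4 was higher by 2.48 ± 0.47 (adjusted p = 0.0119) in 4 of 4 strains. Bmp6 was higher by 4.70 ± 0.76 (adjusted p = 0.00423), also in 4 of 4. Its level in cluster 3 was nevertheless low, at 9.11 ± 4.12 scaled counts (n = 4), and 13 of 440 cells reached 100. The clusters it was set against included 5, 6 and 8, with Bmp6 at 0.0165, 0.61 and 0.478. Chrdl1 was lower by -3.66 ± 0.49 (adjusted p = 0.00127) in 4 of 4 strains. The call for Bmp4 was lost without C57BL6 (2.13) or the pool (2.76), and that for Bmp6 without the pool (4.86) or PdgfrbGFP (5.91). Without Acta2GFP, Fst was called lower as well (-2.03). In the pathway list 5 of 57 genes (8.77%) were higher and 3 (5.26%) lower, with a median of 0.22. The BMP co-receptor gene Rgmb was at 203 ± 30.9 scaled counts against 83.6 ± 19.1 (n = 4) and Eng at 212 ± 39.1 against 104 ± 21.6. Tll2, a relative of Bmp1 among the tolloid proteases, was at 6.75 ± 4.15 against 0.0434 ± 0.0456, in 31 and 17 cells. Id2 was lower, at 11 ± 2.06 against 69.3 ± 39, as were Id3 and Nbl1, which were named after their values were seen. Bmp7 (8.03 ± 6.35 against 6.58 ± 6.05) and Gdf9 (0.85 ± 0.461 against 0.656 ± 1.31) were called higher by the fit although their ranges of mean ± SD overlapped.

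In cluster 5, Chrdl1 was higher by 2.42 ± 0.40 (adjusted p = 0.00419) and Bmp1 lower by -0.60 ± 0.14 (adjusted p = 0.0284), each in 3 of 3 strains, beside 1.29% called higher and 2.52% lower (median -0.54). The cluster held 31 cells in these strains, 3 of them in the pool. Without the pool neither was called, Chrdl1 being at 1.78 and Bmp1 at -0.55, and Bmp1 was also lost without C57BL6 (-0.67) or PdgfrbGFP (-0.70). The pathway list had 4 of 57 genes higher (7.02%) and 2 lower (3.51%), with a median of -0.87. Id1 was at 52.4 ± 29.5 against 19.2 ± 9.73 scaled counts (n = 3), Id3 at 391 ± 71.2 against 229 ± 55.8, Pcolce2 at 543 ± 165 against 277 ± 16.7 and Rgmb at 32.3 ± 11.8 against 137 ± 37.5. Dand5 had 1 count in cluster 5 and 3283 counts in 90 of the other cells.

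In cluster 6, Bmp1 was lower by -0.61 ± 0.14 (adjusted p = 0.0376, 3 of 3 strains), the 1 call among the 8 genes, beside 1.3% called higher and 0.449% lower (median 0.14). It was lost without C57BL6 (-0.65), the pool (-0.56) or PdgfrbGFP (-0.58). Gdf10 (2.26 ± 0.62, adjusted p = 0.0974) and Fst (1.41 ± 0.39, adjusted p = 0.0952) were higher in 3 of 3 strains and missed the threshold. Fst was called without Acta2GFP (1.44). Cspg4dsRED, which had cells in cluster 6 but too few in the other endomysial clusters, did not enter this fit. The pathway list had 2 of 57 genes higher (3.51%) and 1 lower (1.75%), with a median of 0.02. They were Id1, at 50.8 ± 23.5 against 9.58 ± 6.2 scaled counts (n = 4, with Cspg4dsRED), the antagonist Nbl1, at 834 ± 290 against 494 ± 382, and Pcolce2, at 112 ± 55.5 against 280 ± 102.

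In cluster 8, Gdf10 was higher by 3.87 ± 0.56 (adjusted p = 0.00209) and Chrdl1 by 2.53 ± 0.35 (adjusted p = 0.00137), each in 4 of 4 strains, beside 1.32% called higher and 0.279% lower (median 0.19). The call for Chrdl1 held without any strain, and that for Gdf10 was lost without the pool (4.14) or PdgfrbGFP (4.12). In the pathway list 3 of 57 genes (5.26%) were higher, all of them antagonists, and 1 (1.75%) was lower, with a median of 0.16. Fstl3, a relative of Fst, was at 58.3 ± 52.2 scaled counts against 6.44 ± 3.18 (n = 4), and Nog, the noggin gene, had 130 counts in 4 cells against 41 counts in 8. Pcolce was the lower gene, at 840 ± 118 against 1140 ± 98.6.

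Between the perimysial clusters, Chrdl1 was lower in cluster 9 than in cluster 2 by -5.10 ± 0.62 (adjusted p = 0.0101, 4 of 4 strains), the 1 call among the 8 genes. Of 11843 genes 0.557% were called lower and 0.363% higher, with a median of -0.12. The highest level in cluster 9 was 63.3 scaled counts in the pool, and the lowest in cluster 2 was 185 in C57BL6. How many of all genes had such a gap was not counted. The call was lost without Acta2GFP (-4.65), C57BL6 (-5.02) or PdgfrbGFP (-4.80), and with plates in place of strains (-5.13). Bmp5 had -0.06 ± 0.24 and Bmp4 -1.50 ± 0.63 (adjusted p = 0.519). Of the 42 pathway genes tested, 2 (4.76%) were lower and none higher, with a median of -0.71. They were Bmp3, at 0.532 ± 0.321 against 40.1 ± 3.98 scaled counts (n = 4), and Pcolce2, at 4.98 ± 2.15 against 197 ± 67.1.

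The muscle of origin is, like strain and plate, a label that the clustering did not use, and it is the 1 such label compared here. The soleus, a slow postural muscle, and the gastrocnemius, a mostly fast one, had been kept apart for PdgfrbGFP and for the pool, and in the pool each muscle lay on its own plate, so muscle and plate cannot be told apart there. None of the 9 genes differed between the endomysial cells of the 2 muscles by the test, and neither did any of the 16337 genes (0% called higher and 0% lower), although 807 had an unadjusted p under 0.05 and DESeq2 called 111, none of them among the 9. The fit had 1 residual degree of freedom. The median over all genes was -0.02.

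Bmp1 stood at 164 scaled counts in soleus against 252 in gastrocnemius in PdgfrbGFP and at 235 against 315 in the pool (-0.59 ± 0.17, adjusted p = 0.967). Gdf10 was at 293 in soleus against 861 in gastrocnemius in PdgfrbGFP but at 294 against 300 in the pool (-0.75 ± 0.45). Chrdl1 was at 60.2 against 237 in PdgfrbGFP and at 65.4 against 48.5 in the pool (-0.92 ± 0.75). Bmp4 was at 122 against 65 in PdgfrbGFP and at 142 against 149 in the pool (0.20 ± 0.23). The makeup of these cells differed, and its part in the result was not tested. In PdgfrbGFP, cluster 8 made up 42% of the gastrocnemius and 28.9% of the soleus cells, cluster 3 made up 17% and 56.7%, and cluster 1 made up 14.3% of the gastrocnemius cells and held no soleus cell. In the pool, cluster 3 made up 59.8% and 43.5% and cluster 1 made up 16.5% and 19.4%. Within cluster 3 alone, Bmp1 was at 214 in soleus and 189 in gastrocnemius in PdgfrbGFP and at 248 and 305 in the pool (-0.09, not called), so the order seen over all endomysial cells was kept in the pool and turned in PdgfrbGFP. Within cluster 8, Bmp1 was at 118.5 in soleus and 213.7 in gastrocnemius in PdgfrbGFP and at 189.4 and 371.5 in the pool. Within cluster 6 it was at 57.3 and 166.7 in PdgfrbGFP and at 150.7 and 164.4 in the pool. The order was thus kept in both strains in clusters 8 and 6, which were not tested alone. In the cluster 3 cells Fst was at 12.4 in soleus and 76.7 in gastrocnemius in PdgfrbGFP and at 13.1 and 63.6 in the pool (-2.44, not called). Bmp4 was at 174 and 209 there in PdgfrbGFP and at 245 and 192 in the pool (-0.26). The value for Grem1, -4.22 ± 1.36, rested on its few counts. In the pathway list 0 of 54 genes were called, 2 having an unadjusted p under 0.05.

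**Figure D4:**
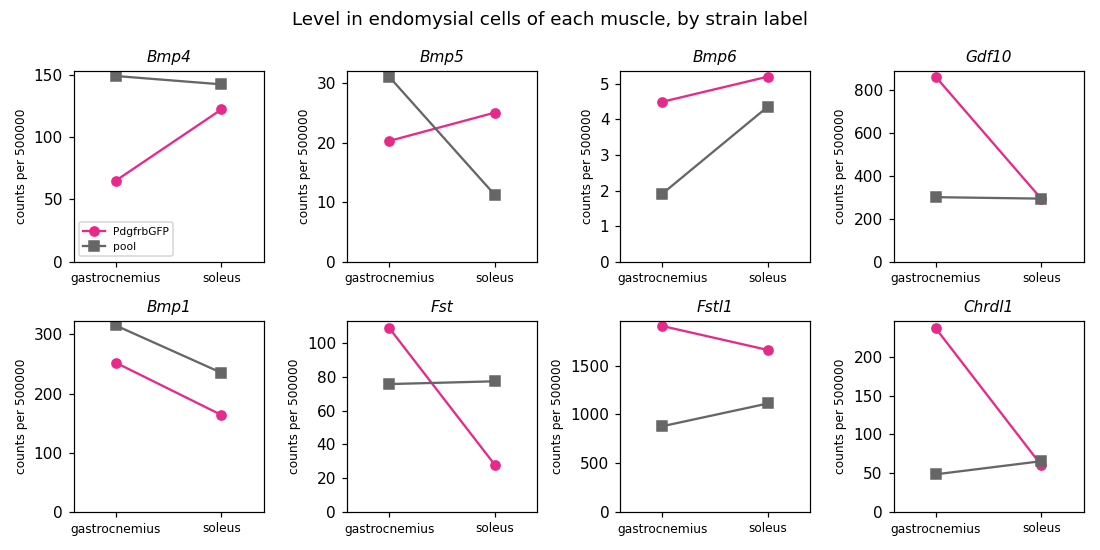
Level (y axis, scaled counts, linear from 0) of 8 genes in endomysial cells of the gastrocnemius and the soleus (x axis), with a line for PdgfrbGFP (112 and 90 cells) and for the pool (194 and 108 cells). Bmp1 is lower in soleus in both lines (not called), as it also was within cluster 6 and within cluster 8. Within cluster 3 alone it was at 214 in soleus and 189 in gastrocnemius in PdgfrbGFP. Gdf10 runs from 861 to 293 in PdgfrbGFP and from 300 to 294 in the pool.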

How the data were processed

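The deposited table held raw read counts per gene and cell. The authors had demultiplexed the reads with bcl2fastq, trimmed adapters with trim galore, mapped to GRCm38 with TopHat2 (Bowtie1 or Bowtie2) and counted with featureCounts; the gene annotation and use of strand are not given in the sources used here. The authors clustered the cells with pagoda2 and removed cells with very many genes as possible doublets, after which none were sought here. They had also removed cells with neither Pdgfra nor Pdgfrb, and cells with clear contamination by, for example, endothelial or immune transcripts. The extraction label names heart, the tissue label skeletal muscle. Smart-seq2 reads carry no molecular identifiers and are not independent molecules.

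Of 1754 columns, 1753 matched a labelled cell and 1 was not used. Spike-ins (92 rows, 1.31% of counts) were left out. Identifiers were matched to GENCODE M21, 46005 of 46517. Counts were summed per class or cluster and strain label (3 or more cells; strains with both sides) and tested with edgeR 4.0.16 in R 4.3.3 (TMM, filterByExpr, strain block, quasi-likelihood test), after a test on simulated data. With the block, p-values measure how far the difference between the sides compared varied over strain labels, which may share animals.

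The members and gene lists were chosen with earlier results of these data known. All 9 members are named in every comparison where they bear on it, at most 6 called pathway genes per comparison by size of change (a few more were added to complete small counts and are named as such), and the 3 genes most like each member among those with a mean CPM of at least 5, on log2(CPM + 1). Alternatives were RLE size factors, DESeq2 1.42.0, no filter on low counts, no strain block, plates as units, cells thinned to 40000 counts, cluster 3 alone for the muscles, and each strain left out. A few genes that these rules would name are not reported here.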

Additional observations from a re-analysis of the deposited data

Results flagged for a closer look

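Of 85 sets of 4 or 5 strain values, 14 had a strain far from the others by Dixon's criterion, which chance meets in about 1 set in 20. The values are given without a cause. In mural cells, C57BL6 (9 cells) had 33.9 scaled counts of Gdf10, 24.7 of Fst and 124 of Chrdl1. The other strains had at most 12.2, 4.61 and 27. For each of these genes 1 of the 9 cells of C57BL6 reached 100 scaled counts. Mural cells of Acta2GFP had 46.5 of Bmp4 against at most 5.54 elsewhere, and 3 of 56 reached 100. The pool had 91.4 of Gdf10 in cluster 2 (next 8.33) and 69.2 in perimysial cells as a whole (next 7.59). Of its 36 perimysial cells 1 reached 100 scaled counts of Gdf10, a cell of cluster 2 that enters both values. The pool also had 63.3 of Chrdl1 in cluster 9 (next 14.1), 20.7 of Chrdl1 in cluster 4 (next 2.05) and 0.0274 of Grem1 in cluster 1, where the others had 0. Cspg4dsRED had 0 of Bmp5 in cluster 2 and 0.187 in perimysial cells, against at least 91 and 102 elsewhere, and 1.71 of Bmp6 in cluster 6 (next 0.364). C57BL6 had 40.5 of Bmp6 in cluster 2 (next 8.48) and 1.63 in cluster 8 (next 0.118).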

How the results depend on the processing

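Over 854 alternative values for 89 member fold changes, 759 kept their side of the threshold, 36 lost a call and 59 gained one. None that was called changed sign, whereas 42 values that were not called did, for 18 of the fold changes, among them Bmp6 in paramysial cells (-0.26, against 0.33 with thinned cells), Bmp6 in cluster 10 (-1.99, against 0.33 without the block) and Bmp4 between the muscles (0.20, against -0.26 in cluster 3 alone). The cause of the changes below was not tested. For paramysial cells, 0 members were called, against 1 with RLE size factors, 2 with DESeq2, 1 with plates and 4 with thinned cells, and 0 to 2 with a strain left out. For cluster 10, 1 member was called, against 5 with DESeq2, 4 without the filter, 2 without the replicate block, 3 with plates, 2 with thinned cells and 0 to 5 with a strain left out. For cluster 3, 3 were called, against 5 with DESeq2, with plates and with thinned cells and 1 to 4 with a strain left out. For cluster 6, 1 was called, against 4 with DESeq2, with plates and with thinned cells, 0 without the filter or without the block, and 0 to 2 with a strain left out. For cluster 5, 2 were called, against 1 without the block and 0 to 2 with a strain left out. With a strain left out the counts were 1 to 4 for cluster 1, 1 to 2 for cluster 8 and 0 to 1 for cluster 9 against 2, which had 0 with plates. Without the block, Bmp1 lost its call in mural cells (-2.45), perimysial cells (-1.21), cluster 5 (-0.53) and cluster 6 (-0.54), and Fstl1 in perimysial cells (-0.78), while Chrdl1 gained one there (2.26) and Fst in cluster 10 (-7.04). The cluster with the highest level moved for Bmp5 from 9 to 2 and for Bmp6 from 9 to 7 with the mean over all cells, and for Fst from 6 to 5 and Chrdl1 from 2 to 5 with the share of cells. With a strain left out it was 7 to 9 for Bmp6, 1 to 4 for Fstl1 and 2 to 8 for Chrdl1. Over all genes, DESeq2 called 4336 in mural, 2068 in perimysial, 796 in paramysial and 993 in cluster 10 cells, 1440, 812, 2939, 873 and 905 in clusters 1, 3, 5, 6 and 8, and 848 for cluster 9 against 2, over 1.5 times the edgeR counts each time. Plates gave 1294 in perimysial cells, 26 in paramysial, 111 in cluster 10, 860, 535, 982, 608 and 584 in clusters 1, 3, 5, 6 and 8, and 41 for cluster 9 against 2. Thinned cells gave 145 in paramysial, 141 in cluster 10 and 195 for cluster 9 against 2, no filter 274 and 345 in the last 2, and no block 8 in paramysial. With a strain left out, the range was 1230 to 2257 in mural, 395 to 1416 in perimysial, 10 to 64 in paramysial and 0 to 216 in cluster 10 cells, 183 to 392, 79 to 188, 87 to 823, 63 to 323 and 42 to 182 in clusters 1, 3, 5, 6 and 8, and 35 to 50 for cluster 9 against 2. The median of all genes moved without the block from -0.46 to 0.02 in mural, -0.19 to -0.04 in perimysial, -0.86 to -0.18 in paramysial and -0.41 to -0.06 in cluster 10 cells, from 0.26 to 0.15 in cluster 3, from -0.54 to -0.31 in cluster 5 and from -0.12 to 0.01 for cluster 9 against 2. Without the filter it was -0.89, -0.50, -0.92, -1.18, 0.33, -0.77 and -0.35 in the same order, and -0.04 in cluster 1 (0.08 with it). It was -0.84 in mural cells and -0.26 for cluster 9 against 2 with plates, -0.55 in paramysial cells and -0.40 in cluster 5 with thinned cells, and -0.27 in cluster 10 with RLE size factors. Leaving a strain out of the comparison of muscles could not be fitted, and plates could not stand for strains there. The smallest sums behind any test were of 4 paramysial cells of PdgfrbGFP (675518 counts) and 3 cluster 5 cells of the pool (1083538 counts).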
